A study of Mus musculus with 8 samples.

Results

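The genes of the cadherin switch were followed in primary cultures of cerebellar cells exposed to T3, the active thyroid hormone, or left untreated. The group holds 10 genes: the cadherins Cdh1, Cdh2 and Cdh11, the transcription factors Snai1, Snai2, Twist1, Zeb1 and Zeb2, and the keratins Krt18 and Krt19. Its members are all probe-sets of the mouse whole-genome array that carry the symbol of 1 of these genes alone, which gave 20 of 45037 probe-sets and 10 of 18193 genes. Cultures from wild-type newborn pups (P4 to P7 in the sample labels, P1 to P4 in the methods) were kept for 48 h in serum-free medium and then received 0.1 µM T3, or nothing, for 6, 16, 24 or 48 h. Each of the 8 conditions was read on 1 array, and the methods state that both cultures of a time point came from 1 cell batch, so the 4 time points are the only replication of the treatment. Hours are counted from the start of treatment in both arms, after the first 48 h of culture, so a doubling of the hours is not a doubling of culture age. Whether time points shared a preparation is not stated, and the hours and the preparation of the cells cannot be told apart.

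Cadherins are calcium-dependent adhesion proteins whose cytoplasmic tails bind catenins and, through them, actin. Epithelial cells carry E-cadherin, encoded by Cdh1, while neurons and mesenchymal cells carry mostly N-cadherin, encoded by Cdh2, and the replacement of one by the other is called the cadherin switch. The factors of the Snail, Twist and Zeb families bind E-box sequences and are known to repress Cdh1, and Krt18 and Krt19 form the intermediate filaments of simple epithelia. In the brain, epithelial cells line the choroid plexus, and the meninges hold fibroblasts and a barrier layer with E-cadherin.

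The deposited values were MAS5 signals, linear intensities that the authors had brought to a common scale (mean 100 after trimming), and the median signal lay between 14.8 and 17.7. A probe-set was kept for the tests when its mean log2 signal reached the 60th percentile, a signal of 31, which kept 18015 probe-sets and 10194 genes. Of the members, 14 of 20 probe-sets and 9 of 10 genes were kept, and a gene is given below by its brightest probe-set unless stated. Only signals of the same probe-set are compared. The cultures carried the markers of their label: 8 of 8 neuron markers were kept, with a summed signal of 3441 to 12231 on the T3 arrays and 2516 to 14682 on the untreated arrays. Markers of other cells were present too, with 9 of 10 meningeal fibroblast markers and 8 of 11 choroid plexus epithelium markers kept, Ttr (transthyretin) among them at 3415 to 4478 on all arrays. The untreated 24 h array stood apart from the others: the summed signal of 7 astrocyte and Bergmann glia markers was 3395 there and 470 to 996 on the other 7 arrays, and Aqp4, the astrocyte water channel, was 1054 there and 16.8 to 76.8 on the others. Differences at 24 h are therefore differences from that array, and values without the 24 h pair are given where a result rests on it.

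Over the 4 pairs of arrays, no member differed between T3 and untreated cultures past the threshold. With limma and Benjamini-Hochberg adjustment, 0 of 18015 probe-sets (0%) had an adjusted p under 0.05, and 985 had an unadjusted p under 0.05, among them the brightest probe-sets of Cdh1 and Zeb2. Over the hours, 316 probe-sets rose (1.75%) and 76 fell (0.422%), and among the 9 kept members Cdh11 and Twist1 rose and Zeb1 fell. These calls are fragile: 0 probe-sets passed when each time point entered as 1 mean (3409 at an unadjusted p under 0.05), and 0 when the 6 h arrays (454) or the 48 h arrays (1592) were left out. A T3 difference that changed steadily with the hours was called for 0 probe-sets (0%), with 245 at an unadjusted p under 0.05, among them those of Krt19, Snai2 and Krt18. Under chance alone a share of about 0.05 of all probe-sets would lie under that unadjusted limit. The fit of a changing T3 effect had fewer than that share, 245 of 18015, so this share is no measure for it. No member is called on an unadjusted p here. The plot of signals by hour shows all 10 genes.

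**Figure D1:**
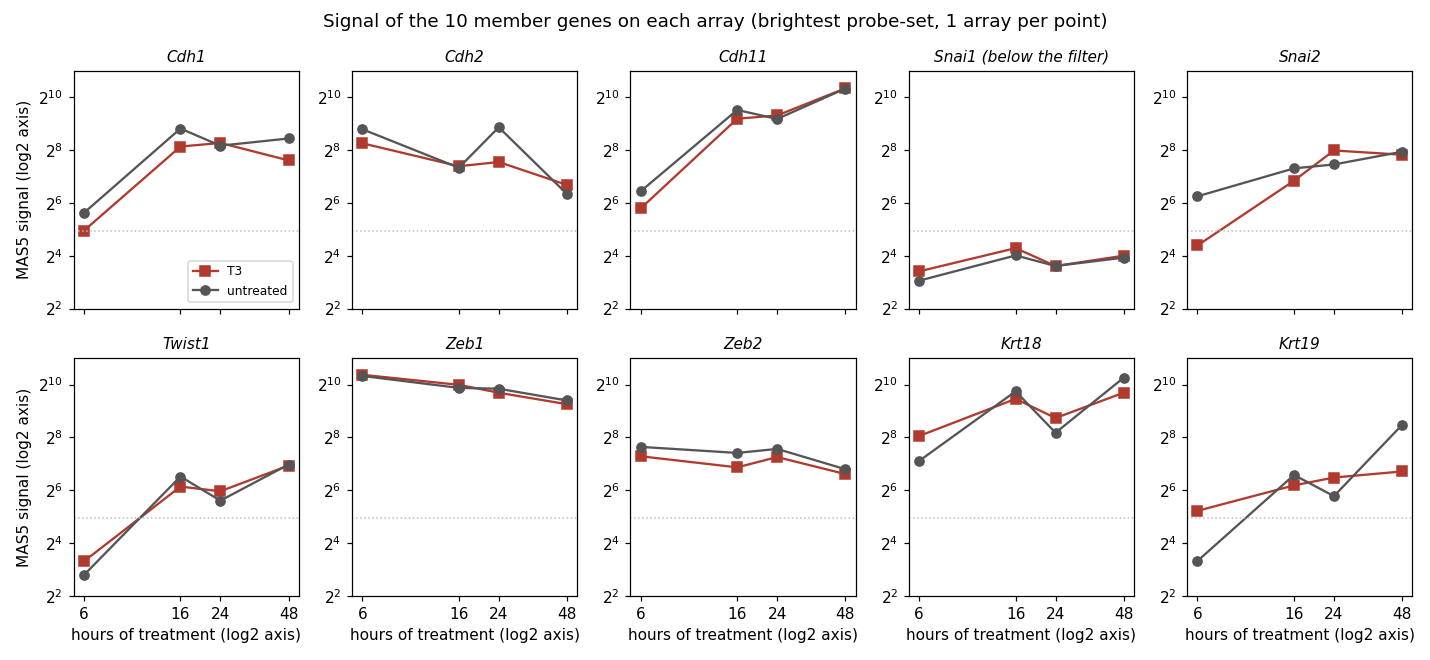
MAS5 signal (log2 axis) of the brightest probe-set of each of the 10 genes against the hours of treatment (log2 axis), with T3 arrays as red squares and untreated arrays as grey circles, 1 array per point. The dotted line marks the filter, a signal of 31; Cdh11 and Twist1 were lowest at 6 h and highest at 48 h in both treatments, and Zeb1 was highest at 6 h and lowest at 48 h.

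Cdh1, encoding E-cadherin, had signals of 30.8, 280.3, 308.2 and 195 at 6, 16, 24 and 48 h with T3, against 49.1, 449.4, 286.9 and 346.4 in the untreated cultures. It was lower with T3 at 3 of 4 time points, by similar amounts on the log2 scale (-0.67 at 6 h, -0.68 at 16 h and -0.83 at 48 h), and slightly higher at 24 h (0.10). The T3 and untreated signals overlapped widely, since the 6 h arrays of both treatments stood far below all others. Over the 4 pairs the difference was -0.52 ± 0.17 (SE, log2), with an unadjusted p = 0.0176 from limma that became an adjusted p = 0.815 over all probe-sets. Cdh1 was also among the genes that the study took further. The study picked genes from these arrays or as known T3 targets. Its discussion names 4 of its genes as reported before (Hr, Snap25, Dbp and Klf9). Cdh1 is not among them, which leaves these arrays as its likely ground. Its direction here is therefore not taken as independent evidence. With the hours, its slope was 0.93 ± 0.28 (SE, log2 per doubling of the hours) and did not pass in limma (adjusted p = 0.101). That slope came from the step between 6 and 16 h: it was -0.27 once the 6 h arrays were left out (adjusted p = 0.999). It passed with the 16 h pair left out (0.99, adjusted p = 0.0453) or the 24 h pair (0.89, adjusted p = 0.0467). Over all alternatives its adjusted p lay between 0.0453 and 0.999.

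Cdh2, encoding N-cadherin, the main cadherin of neurons, had 305.9, 167.2, 187 and 102.3 at the 4 successive times with T3 and 442.1, 160.8, 464.8 and 80.6 without. The largest T3 difference on the brightest probe-sets of the 3 member cadherins was its 24 h value, a ratio of 0.402 (log2 -1.31, 1 array each), and the other differences were -0.53 at 6 h, 0.06 at 16 h and 0.34 at 48 h. Its other probe-set read 113.7 with T3 and 246.5 untreated at 24 h (log2 -1.12), so both probe-sets of Cdh2 were lower by more than 2-fold there. The untreated 24 h array, which stood apart by its glial markers, had the highest Cdh2 signal of all 8 on the brightest probe-set. Markers of neurons and glia were also lower in the T3 culture than on that array: the median difference was -0.80 over 8 neuron markers, with 0 of 8 higher, and -1.86 over 7 astrocyte and Bergmann glia markers, with 1 of 7 higher, against 0.03 over all kept genes. Their part in the Cdh2 result was not tested. In whole cultures like these, fewer cells of a type and less RNA per cell cannot be told apart. The T3 difference of Cdh2 over the 4 pairs was -0.36 ± 0.26 (SE, adjusted p = 0.818, limma), and it was -0.04 without the 24 h pair (adjusted p = 0.976, range over all alternatives 0.765 to 1). Its slope with the hours was -0.58 ± 0.25 (adjusted p = 0.203), and with the 24 h pair left out it was -0.67 and passed (adjusted p = 0.00875, range over all alternatives 0.00875 to 0.999).

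Cdh11, encoding a cadherin of mesenchymal cells, had the steepest slope of the 9 kept members. Its signal was 55.3, 581.9, 633.9 and 1292 in T3 cultures at 6, 16, 24 and 48 h, and 86.7, 732.6, 578.2 and 1285 in untreated cultures. Both 6 h arrays were the lowest and both 48 h arrays the highest, and the 48 h signal was 23.4 times the 6 h signal with T3 and 14.8 times without. The slope was 1.38 ± 0.20 per doubling of the hours (SE, log2, 8 arrays, adjusted p = 0.0391, limma, time point as random effect). It missed the threshold when the 6 h arrays (0.67, adjusted p = 0.999) or the 48 h arrays (1.70, adjusted p = 0.353) were left out, and when each time point entered as 1 mean (adjusted p = 0.208). Over all alternatives its adjusted p lay between 0.00455 and 0.999. T3 differences of Cdh11 were -0.65, -0.33, 0.13 and 0.01 at the 4 times (mean -0.21 ± 0.14, SE, adjusted p = 0.818). The other probe-set of Cdh11 was not kept, with 1.1 to 57.1 on the T3 arrays and 5.3 to 42.2 on the untreated arrays, lowest at 6 h and highest at 48 h as well.

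Of the member cadherins, Cdh1 and Cdh11 had their lowest signals at 6 h, while Cdh2 had its lowest at 48 h. Across the 8 arrays, the log2 signals of Cdh1 and Cdh11 correlated at 0.92 and those of Cdh1 and Cdh2 at -0.53, as a description of arrays that share hours and cell batches. Of 15 other cadherins with a probe-set only Cdh4, Cdh5 and Cdh10 were kept, and 0 of 3 passed in either fit. Cdh10, a neuronal cadherin, had 67.8 to 438.6 with T3 and 82.9 to 290.7 without, and Cdh5, the endothelial cadherin, 48.8 to 138.6 and 45.3 to 151.4. Their 24 h differences ran in different directions: -1.79 for Cdh4 (R-cadherin), with 33.8 in the T3 culture and 117 in the untreated one, 0.59 for Cdh10 and 0.17 for Cdh5.

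Of the catenins and adherens junction proteins that hold cadherins to actin, 11 of 14 were kept, 0 passed with T3 and 1 passed with the hours. Nectin2, an immunoglobulin-type adhesion protein of these junctions, rose with a slope of 0.60 ± 0.12 (SE, adjusted p = 0.0474, limma). It had 45.8 to 149.8 in T3 cultures and 47.7 to 176.4 in untreated cultures. On 1 mean per time point Nectin2 did not pass, and 0 of all probe-sets did. The 3 brightest of the list varied less: Ctnnb1, encoding β-catenin, lay between 2879 and 3104 with T3 and between 2988 and 3288 without, a slope of 0.03 ± 0.04 (SE). Ctnna1, encoding α-catenin, had a slope of 0.08 ± 0.07, and Vcl, encoding the actin linker vinculin, 0.45 ± 0.13 (adjusted p = 0.0924). The catenin list had a median slope of -0.09, against -0.01 over all kept genes.

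Among the repressors, Snai1 stayed under the filter on every array, with 10.6, 19.5, 12.2 and 16 at the 4 successive times in T3 cultures and 8.3, 16.1, 12.2 and 15.2 in untreated cultures. No test was made on it. Snai2, encoding Slug, had 20.9, 114.5, 253 and 226.3 with T3 and 76, 158.1, 175.2 and 244.8 without. At 6 h it was the furthest below the untreated culture of all brightest member probe-sets, a ratio of 0.275 (log2 -1.86), and at 24 h it was higher with T3 (0.53). The 6 h value rests on low signals: with 32 added to every signal the difference was -1.03. The second probe-set of Snai2 was not kept and read 11.6 with T3 and 9.3 untreated at 6 h, under the filter on both arrays, so it gives no direction there. Over the 4 pairs the T3 difference of Snai2 was -0.48 ± 0.34 (SE, adjusted p = 0.818), and the change of this difference with the hours, 0.66 ± 0.22 per doubling (SE), had an unadjusted p = 0.0243 and an adjusted p = 1.000. Both rest on the 6 h pair: without it the difference was -0.02 and its change with the hours 0.13, and with 32 added to every signal the change was 0.37. The slope of Snai2 with the hours was 0.89 ± 0.29 (adjusted p = 0.115) and passed without the 24 h arrays (0.85, adjusted p = 0.0285, range over all alternatives 0.0191 to 0.999).

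Twist1, a basic helix-loop-helix factor of mesenchymal cells, rose over the hours. Its signal was 9.9, 70.4, 62.3 and 122.2 in T3 cultures and 6.9, 91.7, 48.7 and 125.7 in untreated cultures. Both 6 h arrays were under the filter and all others above it, so the size of the rise from 6 h is uncertain. The slope was 1.26 ± 0.24 (SE, log2 per doubling, adjusted p = 0.0474, limma). With 32 added to every signal it was 0.61 and did not pass (adjusted p = 0.0513). Nor did it pass without 6 h (0.48, adjusted p = 0.999), without 48 h (1.54, adjusted p = 0.430), or on 1 mean per time point (adjusted p = 0.208). Over all alternatives the adjusted p of Twist1 lay between 0.00965 and 0.999. Its T3 differences were 0.52, -0.38, 0.36 and -0.04 at 6, 16, 24 and 48 h, with a mean of 0.11 ± 0.19 (SE, adjusted p = 0.908).

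Zeb1, a zinc finger and homeodomain factor that mouse granule neuron progenitors express, fell over the hours. It had 1324, 1017, 826.6 and 611.7 at the 4 times with T3, and 1284, 938.6, 918.2 and 674.2 without. Every later array of a treatment was below every earlier one, and the treatments differed by at most 0.15 on the log2 scale at any time. The slope was -0.33 ± 0.07 (SE, log2 per doubling, adjusted p = 0.0474), and the T3 difference -0.03 ± 0.08 (SE, adjusted p = 0.944). The slope did not pass when 6 h (-0.39, adjusted p = 0.999) or 48 h (-0.29, adjusted p = 0.501) was left out, or on 1 mean per time point (adjusted p = 0.208), and its adjusted p over all alternatives lay between 0.00643 and 0.999. The other 2 kept probe-sets of Zeb1, both dimmer, had slopes of -0.40 (adjusted p = 0.182) and -0.15 (adjusted p = 0.497). The remaining probe-set, at 0.9 to 4.8 with T3 and 0.5 to 1.6 without, was not kept.

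Zeb2, the relative of Zeb1, was the member whose brightest probe-set lay lower with T3 at all 4 times. The signals were 156, 116.7, 152.8 and 97.8 in T3 cultures, against 199.6, 170.3, 189.2 and 111 in untreated cultures. Differences ran from -0.55 at 16 h to -0.18 at 48 h and averaged -0.35 ± 0.12 (SE, log2), with an unadjusted p = 0.0220 and an adjusted p = 0.815. The other 2 kept probe-sets did not share this: their means over the pairs were 0.12 ± 0.17 and -0.07 ± 0.25 (SE). The dimmer of these read 49.2 with T3 and 99 untreated at 24 h (log2 -1.01), where the brightest probe-set differed by -0.31. A further 2 probe-sets of Zeb2 were not kept. With the hours, the slope of Zeb2 was -0.22 ± 0.11 (adjusted p = 0.264).

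**Figure D2:**
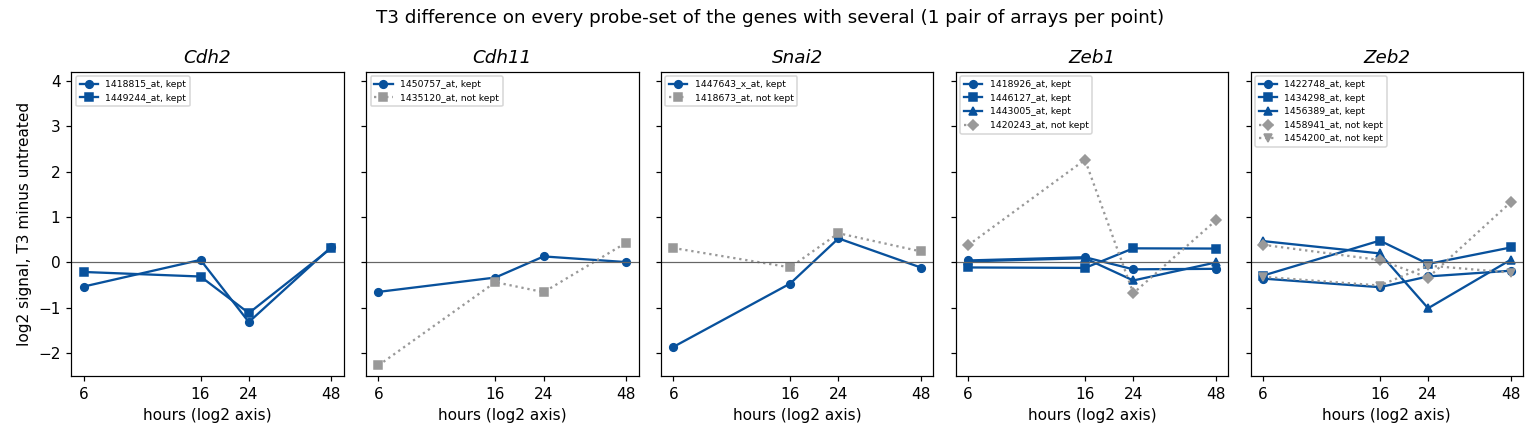
Log2 signal of T3 minus untreated against the hours (log2 axis) on every probe-set of the 5 genes with more than 1 probe-set, kept ones in blue with solid lines and the others in grey with dotted lines. Both probe-sets of Cdh2 lay below -1 at 24 h, whereas the 3 kept probe-sets of Zeb2 ran in different directions. Probe-sets not kept have mean signals under the filter.

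Krt18, a keratin of simple epithelia, was higher with T3 at 6 and 24 h and lower at 16 and 48 h. It had 265.4, 703.6, 425.7 and 828.2 in T3 cultures and 137.9, 857.9, 289.3 and 1228 in untreated cultures, which gave log2 differences of 0.94, -0.29, 0.56 and -0.57. Krt19, the smallest keratin, had 37.3, 72.7, 89.3 and 104.8 with T3 and 10, 95.5, 54.8 and 356.6 without. Its differences alternated in the same way, at 1.90, -0.39, 0.70 and -1.77, so that its T3 signals (37.3 to 104.8) lay within the wider untreated range (10 to 356.6). The untreated 6 h signal of 10 lies under the filter. With 32 added to every signal its 6 h difference was 0.72 and its 48 h difference -1.51, so the 6 h value depends on the low untreated signal. The change of the T3 difference per doubling of the hours was -1.09 ± 0.28 for Krt19 (SE, unadjusted p = 0.00767) and -0.43 ± 0.18 for Krt18 (unadjusted p = 0.0497), and neither passed over all probe-sets (adjusted p = 1.000 each, limma). With 32 added the value for Krt19 was -0.64. The mean T3 difference was 0.11 ± 0.51 for Krt19 and 0.16 ± 0.24 for Krt18 (SE, adjusted p = 0.968 and 0.893).

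Krt8, the partner with which Krt18 forms filaments, is no member but showed the same alternation. It had 239, 522.6, 293.3 and 462.1 with T3 and 148.9, 684.3, 198.9 and 951.5 without, differences of 0.68, -0.39, 0.56 and -1.04. Of 11 kept genes of epithelial junctions and keratins, Krt8 included, 10 were higher with T3 at 6 h, 3 at 16 h, 9 at 24 h and 4 at 48 h, against 5107, 4924, 5357 and 4673 of all 10194 kept genes. None passed the T3 fit or the time fit, and 10 of 11 had a positive slope, against 4814 of all 10194 kept genes. The other bright genes of this list were Tjp1, encoding the tight junction scaffold ZO-1, with a T3 difference of -0.18, and F11r, encoding the junctional adhesion molecule JAM-A, with 0.25 (adjusted p = 0.815 each). At the same 4 times, choroid plexus markers had median T3 differences of 0.17, 0.10, 0.45 and 0.18, and meningeal markers -0.88, -0.14, 0.41 and -0.01. Neuron markers alternated with the opposite sign, at -0.11, 0.27, -0.80 and 0.57. The part of these cells in the keratin values was not tested. The epithelial genes Cldn7, Esrp1 and Ovol2 were below a signal of 10 on all arrays.

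The slopes of the keratins with the hours, 0.70 ± 0.26 for Krt18 and 1.06 ± 0.43 for Krt19 (SE), did not pass (adjusted p = 0.150 for Krt18 and 0.175 for Krt19, limma). Without the 24 h arrays the slope of Krt18 was 0.79 and passed (adjusted p = 0.0325, range over all alternatives 0.0325 to 0.999). Without 24 h, 7 of 9 members passed in all, Cdh1, Cdh2, Snai2 and Krt18 being added to Cdh11, Twist1 and Zeb1, while 4981 of all probe-sets did.

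Because Krt18 and Krt8 varied together on these arrays and lie near each other on chromosome 15, their promoters are shown, 250 bases before to 50 bases after the start of the gene, from RefSeq on GRCm38.p6. Capitals mark matches on either strand to CACCTG (reverse complement CAGGTG), the E-box form known for Snail and Zeb factors, and to AGGTCA (reverse complement TGACCT), the half-site known for the T3 receptor.
Krt18, chr15:102027966-102028265, plus strand: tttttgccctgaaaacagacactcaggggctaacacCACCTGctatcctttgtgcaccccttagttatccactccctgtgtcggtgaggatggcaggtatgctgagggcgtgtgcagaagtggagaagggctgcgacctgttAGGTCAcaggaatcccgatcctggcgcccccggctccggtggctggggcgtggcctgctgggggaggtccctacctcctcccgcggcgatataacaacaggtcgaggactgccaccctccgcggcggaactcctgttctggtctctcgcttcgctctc
Krt8, chr15:102004293-102004592, minus strand: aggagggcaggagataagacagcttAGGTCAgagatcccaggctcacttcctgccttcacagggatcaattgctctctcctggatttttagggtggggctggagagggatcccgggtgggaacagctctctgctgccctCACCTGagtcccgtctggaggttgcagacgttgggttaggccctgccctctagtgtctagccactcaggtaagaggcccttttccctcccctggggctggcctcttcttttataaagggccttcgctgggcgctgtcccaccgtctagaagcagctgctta
In the Krt18 window CACCTG lies at -214 to -209 and AGGTCA at -108 to -103, counted from the start of the gene, and in the Krt8 window they lie at -111 to -106 and -225 to -220. The matches do not overlap. The E-box form is held by 20.2% of 32851 promoter windows of the same length and the half-site by 16.3%, so both are common, and a match is a description of letters, not a binding site.

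Of the 10 members, 4 had a promoter in the table used here (Snai1, Twist1, Zeb2 and Krt18). The Snai1 window, on chromosome 2, is shown as that of a repressor with the E-box form in front of its own gene, at -126 to -121 and marked in capitals.
Snai1, chr2:167537945-167538244, plus strand: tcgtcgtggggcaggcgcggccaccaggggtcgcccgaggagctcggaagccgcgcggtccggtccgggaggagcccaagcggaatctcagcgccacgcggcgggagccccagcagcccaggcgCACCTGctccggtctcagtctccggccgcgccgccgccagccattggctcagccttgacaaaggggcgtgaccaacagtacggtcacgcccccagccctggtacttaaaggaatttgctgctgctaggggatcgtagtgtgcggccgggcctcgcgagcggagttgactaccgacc
The windows of Twist1 and Zeb2 held neither motif. Promoters of Cdh1, Cdh2, Cdh11, Snai2, Zeb1 and Krt19 are not shown.

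**Figure D3:**
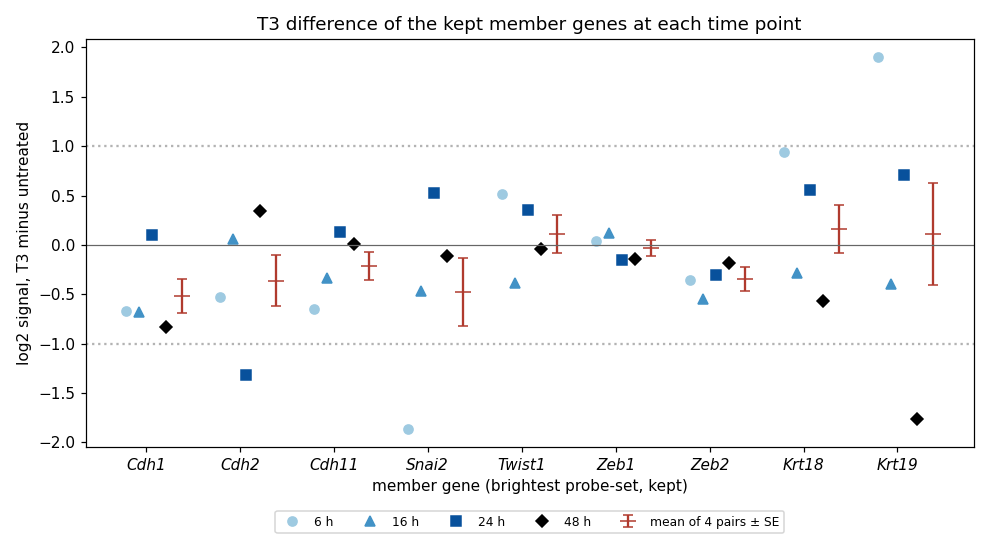
Log2 signal of T3 minus untreated for the 9 kept members at 6, 16, 24 and 48 h (symbols, 1 pair of arrays each), with the mean of the 4 pairs ± SE in red and dotted lines at 2-fold. Beyond the dotted lines lie Cdh2 at 24 h, Snai2 at 6 h and Krt19 at 6 and 48 h.

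At a single time point 1 array stands against 1 array, and there is no test. Of the 14 kept member probe-sets, 1 was beyond 2-fold higher (Krt19) and 1 lower (Snai2) with T3 at 6 h, where 0.527% and 0.328% of all kept probe-sets were. At 16 h there were 0 either way, beside 0.433% higher and 0.305% lower in all. At 24 h 0 were higher and 3 lower, both probe-sets of Cdh2 and 1 of Zeb2, beside 3.67% higher and 5.16% lower in all. At 48 h 0 were higher and 1 was lower (Krt19), beside 0.833% and 0.344%. By sign alone, 6, 5, 7 and 6 of the 14 member probe-sets were higher with T3 at the 4 successive times.

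**Figure D4:**
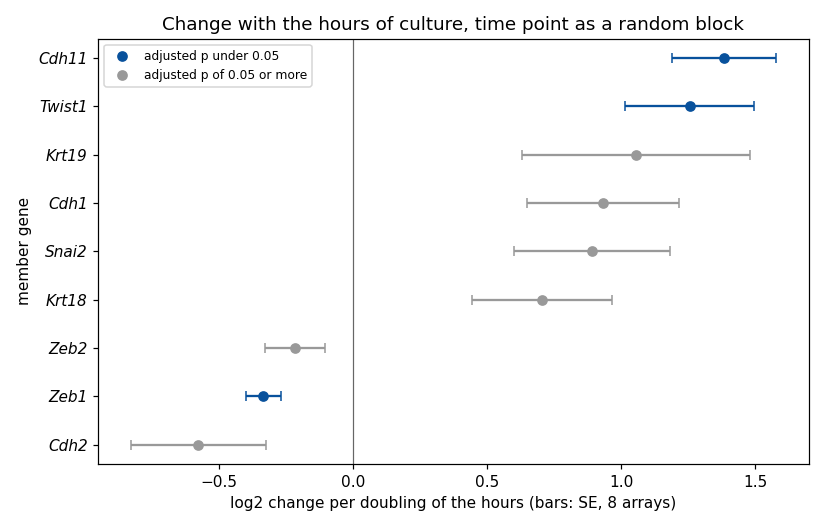
Slope of the log2 signal per doubling of the hours for the 9 kept members (points) with its SE over 8 arrays (bars), the time point being a random block. Cdh11, Twist1 and Zeb1 (blue) had an adjusted p under 0.05, and the other 6 (grey) did not.

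Genes of the mesenchymal state outside the group were taken from a list that holds matrix genes, contractile genes and factors of fibroblasts. Of 19 kept genes on it 6 rose and 0 fell with the hours, and the median slope was 0.72, against 0.50 for the 11 epithelial genes (0 called) and -0.01 for all kept genes (213 rose and 51 fell of 10194). The difference between the lists was not tested. None of the 6 rises passed on 1 mean per time point, where 0 of all probe-sets did. The 5 with the smallest p were Sparc, encoding a matrix glycoprotein (slope 0.57), Prrx1, a homeobox factor of mesenchyme (1.11), Fn1, encoding fibronectin (0.89), Tagln, encoding the actin-binding transgelin (1.26), and Mmp2, a gelatinase (1.09). Fn1 had 296.8 to 1886 in T3 cultures and 347.6 to 2123 in untreated ones. Vim, encoding vimentin and the brightest of the list, had 2339 to 3150 with T3 and 2567 to 3649 without, with a slope of 0.15 ± 0.04 (SE, adjusted p = 0.0837). None of the 19 passed the T3 fit, which had a median difference of 0.01.

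Cdh11, Twist1, Cdh1 and Snai2 were lowest at 6 h in both treatments, and so were the meningeal fibroblast markers. The choroid plexus, mesenchymal and epithelial lists were lowest at 6 h too. The summed signal of 9 kept meningeal markers was 1509 at 6 h and 15280 at 48 h in T3 cultures, and 2008 and 16308 in untreated cultures. From 24 to 48 h with T3 this sum rose from 9559, while Cdh1 fell from 308.2 to 195. Without T3 both rose. Past the threshold, 6 of the 9 rose (Col1a1, Col1a2, Col3a1, Lum, Igf2 and Ogn), as did 1 of the 8 choroid plexus markers (Sulf1). Of all 10194 kept genes 213 rose, and on 1 mean per time point 0 probe-sets passed. Slopes were positive for 9 of 9 meningeal and 7 of 8 choroid plexus markers, with medians of 1.25 and 0.74, against 4814 positive of all 10194. At 6 h, where Cdh1, Cdh11 and Snai2 were lower with T3, 2 of the 9 meningeal markers were higher with T3, while Twist1 was higher (0.52, from signals under the filter). At 24 h, where Cdh1, Cdh11, Snai2 and Twist1 were higher, 9 of 9 markers were. So were 15 of 19 kept mesenchymal and 9 of 11 kept epithelial genes, against the untreated array that stood apart. At 16 h Cdh1 (-0.68), Cdh11 (-0.33), Snai2 (-0.47) and Twist1 (-0.38) were lower, and 2 of the 9 markers were higher (median -0.14). At 48 h 3 of the 9 markers were higher (median -0.01). Cdh1 was lower there by -0.83, while Cdh11 (0.01), Snai2 (-0.11) and Twist1 (-0.04) differed little. Of all 10194 kept genes, 5107, 4924, 5357 and 4673 were higher with T3 at 6, 16, 24 and 48 h. Neuron markers had a negative median slope, -0.82, with 0 of 8 called, but did not fall steadily. At 6, 16, 24 and 48 h their summed signal was 12231, 5807, 9064 and 3441 with T3. Without T3 it was 13016, 5187, 14682 and 2516. Choroid plexus markers alternated in the opposite direction, with sums of 4977, 8622, 5678 and 8384 with T3 and 4813, 8243, 4978 and 7799 without. The part of these cell types in the members' values was not tested.

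**Figure D5:**
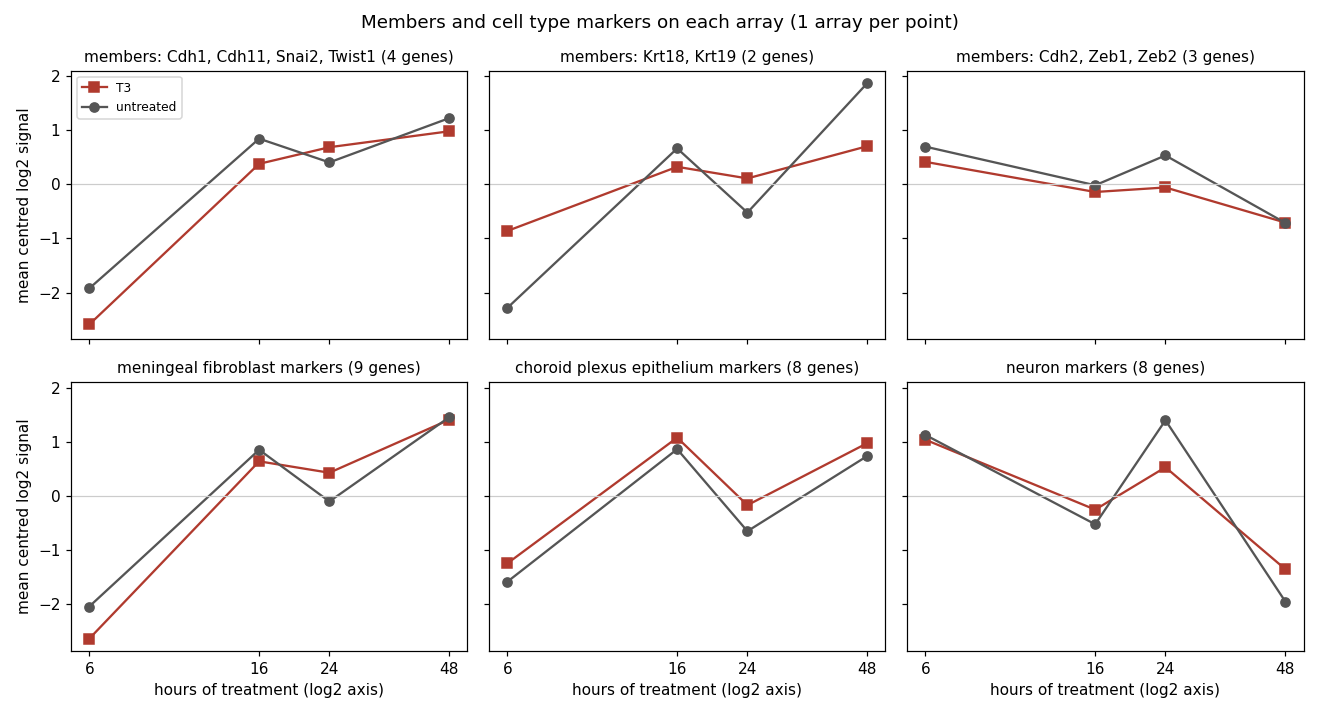
Mean centred log2 signal of 3 sets of members (top) and of 3 marker lists (bottom) against the hours (log2 axis), with T3 arrays as red squares and untreated arrays as grey circles, 1 array per point. Cdh1, Cdh11, Snai2 and Twist1 and the meningeal markers were lowest at 6 h, as were the keratins and the choroid plexus markers. Cdh2, Zeb1 and Zeb2 were, like the neuron markers, lowest at 48 h. The neuron markers fell, rose and fell again over the hours, and the keratins and choroid plexus markers moved in the opposite direction.

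The genes whose log2 signals followed each member most closely over the 8 arrays are given as a description, with Pearson's r, because all points share hours and cell batches. For Cdh11 they were the collagen receptor gene Mrc2 (0.997), Col1a2 (0.995) and Car13 (0.995), and for Twist1 they were Crispld1 (0.999), Fuca2 (0.998) and Gjb6 (0.996). Cdh1 was followed by Vnn1 (0.986), Itgbl1 (0.984) and Avil (0.980). Cdh2 went with Myo5a, encoding a myosin motor (0.996), Dpysl2, encoding the axonal protein CRMP2 (0.995), and Fnbp1l (0.992). Zeb1 went with Cbfa2t3, Noa1 and Ywhae (0.988 to 0.993), Zeb2 with Dchs1, of the wider cadherin family, Kdm4b and Dlg5 (0.957 to 0.967), and Snai2 with Crebrf, Mgp and Cdr2l (0.954 to 0.971). For Krt18 they were Ttc7, Pir and Sgms2 (0.989 to 0.992), and for Krt19 Rtkn, Suox and Eva1c (0.968 to 0.987). Among the members themselves, Cdh11 and Twist1 correlated at 0.98, Krt18 and Krt19 at 0.92, and Cdh2 and Krt18 at -0.92.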

How the data were processed

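Per the labels, the submitters used GCOS and MAS5, and the authors deposited a linear signal intensity for each probe-set on each of the arrays, from Affymetrix mouse arrays hybridized after a double round of cDNA synthesis. Of 45101 probe-sets, 64 controls were left out. The platform table gives 34945 probe-sets 1 gene symbol, 932 several and 9160 none. Signals were floored at 1 and taken as log2. The authors' detection calls were not used here.

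T3 was tested with limma 3.58.1 (R 4.3.3) blocked on the time point (4 pairs), the hours on a log2 scale with treatment as covariate and a random effect for the time point (duplicateCorrelation, correlation 0.569), and a changing T3 effect on the 4 paired differences, all with a variance trend and Benjamini-Hochberg adjustment over 18015 probe-sets at 0.05. The fits were tested on simulated data. The pairing by cell batch comes from the methods. Each array was also taken as its deviation from the mean of its treatment over the 4 times. These deviations correlated between T3 and untreated at 0.905, 0.713, 0.520 and 0.878 for the same hours. The T3 arrays reached at most 0.309, 0.358, 0.00556 and 0.448 with untreated arrays of other hours. Arrays of a pair share the hours as well as the batch, so these values cannot show which of them is shared.

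Members and gene lists were chosen with earlier results of these data known. All member probe-sets are accounted for. From the lists of other cadherins, catenins, epithelial and mesenchymal genes, those that passed (at most 5 per direction) and the 3 brightest are named, and for each kept member the 3 genes with the highest correlation. Cldn7, Esrp1 and Ovol2, named as lying below a signal of 10, were picked after their values were seen, as were Ttr and Aqp4 among the markers, whose lists are given by sums and counts with the meningeal and choroid plexus genes that passed. Cdh4, Cdh5 and Cdh10 are all that were kept. The 8 arrays, 1 per condition, limit the precision. Figures were drawn with Python 3.11.15 and matplotlib 3.10.9.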

Additional observations from a re-analysis of the deposited data

Results flagged for a closer look

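Among the 9 kept members, the 4 paired T3 differences of each gene were screened for a value far from the other 3, which chance alone gives in about 1 of 20 such sets. Cdh1 at 24 h stood apart in this sense: its log2 difference of T3 minus untreated was 0.10, while the other 3 lay between -0.83 and -0.67. The gap took 0.833 of the whole range, just over Dixon's critical value for 4 values. Without the 24 h pair the T3 difference of Cdh1 was -0.73 (adjusted p = 0.230, range over all alternatives 0.230 to 1, limma). Leaving out the pair that stood apart had to make this difference larger in size, so the value is no check on it.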

How the results depend on the processing

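For the 9 kept members, 0 passed the T3 fit and 0 the fit of a changing T3 effect under every alternative run for them, although 2 probe-sets of the whole array passed the T3 fit without 24 h (range without 1 time point 0 to 2). Without the time block the T3 fit also called 0 probe-sets (76 at an unadjusted p under 0.05). The calls with the hours depended on most settings. In place of 392 probe-sets and 3 members there were 55 and 1 after quantile normalization, 168 and 1 after median centring, and 162 and 1 with 32 added to every signal, Cdh11 being the 1 each time. A filter at the 75th percentile gave 411 probe-sets and 2 of the 7 members it kept, Cdh11 and Zeb1. There were 8 and 0 without the filter, and 0 and 0 without the variance trend, on untreated arrays alone (2091 at an unadjusted p under 0.05) or with the hours on a linear scale. One mean per time point also gave 0 and 0 (3409 at an unadjusted p under 0.05), and arrays taken as independent gave 3458 and 6. Leaving out 1 time point gave 0 to 4981 probe-sets and 0 to 7 members (0 without 6 h or 48 h, 1109 without 16 h, 4981 without 24 h). The cause was not tested.

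Directions turned as follows, none of them past the threshold. With 32 added, the T3 difference of Krt19 was -0.15 and the change of that of Cdh1 with the hours -0.06. On single other probe-sets the T3 difference was 0.10 for Zeb1 and 0.12 for Zeb2 and its change with the hours 0.16 for Zeb1 and -0.24 for Zeb2, and the mean of the Zeb1 probe-sets gave 0.013 for this change. Leaving out 1 time point, T3 differences ran from -0.022 to 0.28 for Twist1, -0.10 to 0.41 for Krt18, -0.49 to 0.74 for Krt19 and -0.083 to 0.0065 for Zeb1, the slope of Cdh1 from -0.27 to 1.61, and the change of the T3 difference from -0.18 to 0.32 for Cdh1, -0.19 to 0.15 for Twist1, -0.24 to 0.34 for Cdh2 and -0.0055 to 0.22 for Zeb2.

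Member probe-sets beyond 2-fold numbered 2, 0, 3 and 1 at the 4 times. With 32 added there was 1 at 6 h and 1 at 24 h, at a 1.6-fold limit 1 at 16 h and 2 at 48 h, and at a 3-fold limit 0 at 24 h. Signals under the filter, such as those of Twist1 at 6 h, carry little above background.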
